A study of Mus musculus with 6 samples.

Results

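The genes described here encode the contractile apparatus and the calcium-handling machinery of skeletal muscle, and they were measured in the inguinal white fat of mice (iWAT), which lies under the skin. The members are 39 genes, taken by symbol from the table of 16538 genes, and 38 of them were listed. Tnni1, which encodes slow skeletal troponin I, was the member not listed. The genes were chosen with earlier results of these samples known, because muscle transcripts had differed from sample to sample and had been higher in the knockout samples. The difference between the groups is therefore given for them as a description, and nothing is read from the counts of tests on them. The control mice carried the Nrg4 fl/fl alleles (their genotype is given as wt in the sample labels) and the AKO mice were adipocyte-specific Nrg4 knockouts made with Adiponectin-Cre, a driver that acts in adipocytes. Cold acclimation at 8 °C, which the labels give as 10 days, was shared by both groups. The study's text gives a longer period. Each group had 3 samples, and each sample was RNA pooled from 2 mice of the same genotype, so that a difference between the mice of a pool cannot be seen and n = 3 in each group refers to pools.

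Skeletal muscle contracts when myosin of the thick filament pulls on actin of the thin filament, within sarcomeres that the Z-disc proteins hold in register. Calcium released from the sarcoplasmic reticulum binds troponin on the thin filament and starts the contraction, and the reticulum pump takes the calcium back. Most of these proteins exist in fast-fiber and slow-fiber isoforms from separate genes, and the isoforms therefore serve as marks of fiber type.

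In whole tissue, fewer muscle cells and less muscle RNA per cell cannot be told apart. The values are normalized counts, that is reads per gene divided by a size factor of each sample, and the members' reads were recovered from them.

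Nrg4 itself, the targeted gene, had 3128, 3102 and 3092 normalized counts in the controls and 2577, 2627 and 2691 in AKO. The AKO values were all lower than the control values, and the log2 difference was -0.24 ± 0.05 (SE, n = 3 per group), with an adjusted p of 0.298 from limma. The adjusted p was 0.068 from DESeq2 and 0.372 from edgeR. By qPCR, the study found almost no Nrg4 mRNA in the iWAT and brown fat of AKO mice. The gene-level value here holds all exons, and the part that Cre removes was not located, so that it does not measure how complete the knockout was. The samples held between 17570335 and 18373707 reads on the listed genes, so that depth was nearly equal. Adiponectin (Adipoq), Fabp4 and the other adipocyte markers were abundant in all samples, as given with the markers of other cells.

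Promoter windows from RefSeq (GRCm38.p6, 250 bases before and 50 bases from the RefSeq start) were found for 29 of the 39 members. Windows of 4 genes are printed here, because Acta1 is the most abundant member and serves as the common scale for the others, and because Myh4, Myh1 and Myh2 are neighboring genes on chromosome 11 that encode similar fast myosin heavy chains and yet differed in how they varied from sample to sample. The windows lie at chr8:123894726-123895025 (minus strand, Acta1), chr11:67237562-67237861 (plus strand, Myh4), chr11:67199852-67200151 (plus strand, Myh1) and chr11:67170777-67171076 (plus strand, Myh2). Each is written 5′ to 3′ on the strand of its gene, and capitals mark matches to the motifs named after the sequences.
Acta1: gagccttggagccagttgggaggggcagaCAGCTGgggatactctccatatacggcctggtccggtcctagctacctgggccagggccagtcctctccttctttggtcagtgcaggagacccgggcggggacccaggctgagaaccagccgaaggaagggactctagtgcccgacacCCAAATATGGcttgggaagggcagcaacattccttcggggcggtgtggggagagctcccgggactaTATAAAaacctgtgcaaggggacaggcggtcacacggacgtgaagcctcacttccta
Myh4: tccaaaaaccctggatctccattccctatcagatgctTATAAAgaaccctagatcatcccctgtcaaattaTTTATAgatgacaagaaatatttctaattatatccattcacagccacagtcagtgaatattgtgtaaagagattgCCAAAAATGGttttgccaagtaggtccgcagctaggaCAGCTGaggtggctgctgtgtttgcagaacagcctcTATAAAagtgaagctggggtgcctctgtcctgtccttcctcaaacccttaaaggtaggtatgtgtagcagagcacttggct
Myh1: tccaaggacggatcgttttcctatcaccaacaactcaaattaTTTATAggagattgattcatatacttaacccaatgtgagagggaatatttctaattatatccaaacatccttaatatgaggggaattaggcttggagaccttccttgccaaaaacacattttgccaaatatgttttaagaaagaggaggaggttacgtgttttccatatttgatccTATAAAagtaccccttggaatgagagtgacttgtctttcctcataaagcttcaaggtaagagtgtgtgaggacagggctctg
Myh2: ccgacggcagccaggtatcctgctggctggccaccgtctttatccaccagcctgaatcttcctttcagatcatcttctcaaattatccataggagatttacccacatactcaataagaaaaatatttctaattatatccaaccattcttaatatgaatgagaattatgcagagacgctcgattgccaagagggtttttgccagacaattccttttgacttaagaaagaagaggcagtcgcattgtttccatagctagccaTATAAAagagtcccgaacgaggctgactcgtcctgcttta
On both strands, 4 motifs were searched. The E-box CAGCTG, a letter sequence that MyoD-family factors bind, was in the windows of 14 of the 29 members (48.3%) and of 18.3% of all 27025 genes with a window. The TATA box TATAAA was in 8 of the 29 members (27.6%) and in 15.7% of all genes. The CArG box, which serum response factor binds, was in 4 members (13.8%), namely Acta1, Ldb3, Myh4 and Myl3, and in 1.81% of all genes. The MEF2 box, CTA and TAG with any 4 bases between them, was in 2 members (6.90%), Ldb3 and Ttn, and in 4.23% of all genes. The windows of Acta1 and Myh4 held an E-box, a CArG box and at least 1 TATA box, and those of Myh1 and Myh2 held TATA boxes alone of the 4 motifs. In the printed windows no match overlapped another. A match is a description of these letters, and no match says nothing of the factor.

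The member genes as a whole took from 0.00742% to 0.877% of the reads of a sample. Among the controls their share was 0.00742% (1308 reads), 0.196% (34387 reads) and 0.112% (20378 reads), and in AKO 0.156% (28639 reads), 0.598% (107573 reads) and 0.877% (159944 reads). Control replicate 1 stood far below every other sample, and AKO replicates 2 and 3 stood above every other sample. AKO replicate 1 lay between control replicates 3 and 2, so that the groups overlapped. The binomial error of these shares (95% Wilson intervals of 0.00703% to 0.00783% in control replicate 1 and of 0.872% to 0.881% in AKO replicate 3) covers counting error only and is much smaller than the differences between samples of 1 group.

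**Figure D1:**
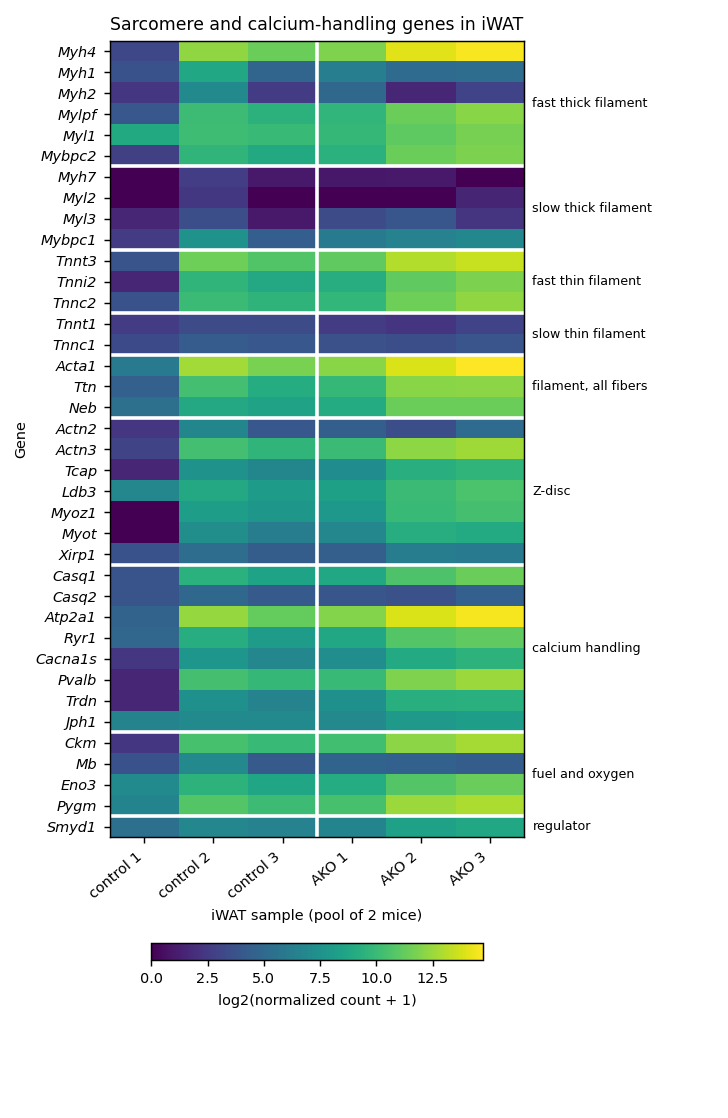
Heat map of log2(normalized count + 1) of the 38 listed members (rows, grouped by role) in the 6 iWAT samples (columns, each a pool of 2 mice). The column of control 1 is the darkest, and those of AKO 2 and AKO 3 are the brightest for the fast-fiber genes other than Myh1 and Myh2. The slow-filament genes other than Mybpc1 stay dark in every column.

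The actin of skeletal muscle, Acta1, on chromosome 8 (chr8:123891769-123894751 in GENCODE M21, GRCm38), had the highest level per length of all members, with a mean over the 6 samples of 6163 normalized counts per kb of exon. Its values per length were 40.5, 4255 and 2277 in the controls and 2849.7, 9949 and 17604 in AKO. The next members by level per length were Tnnt3 (2789 per kb), Atp2a1 (2414), Tnnc2 (2203), Pvalb (2061), Mylpf (1544), Myh4 (1470.0), Pygm (917), Ckm (862) and Tnni2 (854). All 10 are genes of fast fibers or of all skeletal fibers, and none is a slow isoform.

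Among thick-filament genes of fast fibers, Myh4, the myosin heavy chain of IIb fibers, had 8.03, 5046 and 2699 normalized counts in the controls and 3809, 16967 and 24531 in AKO. It was lowest in control replicate 1 and highest in AKO replicates 2 and 3, and control replicate 2 exceeded AKO replicate 1. With a log2 range of 11.41 it varied more between the 6 samples than any other of the 13855 genes tested. Mylpf, the fast regulatory light chain, followed the same order with 15.1, 1075 and 701 in the controls and 838, 2731 and 4478 in AKO. Mybpc2, fast myosin-binding protein C, had 6.02, 790.4 and 492 in the controls and 669, 2768 and 3579 in AKO. Myl1, a fast essential light chain, differed from them in having 484 normalized counts in control replicate 1, against 1154 and 987 in the other controls and 905, 2127 and 3294 in AKO. Its log2 range was therefore only 2.77.

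Myh1 and Myh2, the heavy chains of IIx and IIa fibers, had another pattern. Myh1 had 12.0, 444 and 26.4 normalized counts in the controls and 78.7, 34.2 and 36.6 in AKO. Myh2 had 4.01, 126 and 5.08 in the controls and 30.7, 1.95 and 6.75 in AKO. Both were highest in control replicate 2, second in AKO replicate 1, and low in AKO replicates 2 and 3, which had the most Myh4. Of all reads on 6 sarcomeric myosin heavy chain genes (Myh1, Myh2, Myh3, Myh4, Myh7 and Myh8), Myh4 took 89.7% in control replicate 2, 98.8% in control replicate 3, and 97.2%, 99.8% and 99.8% in AKO. Myh1 took 7.90% in control replicate 2 (exact 95% interval 7.18% to 8.66%) and 2.01% in AKO replicate 1 (1.60% to 2.49%), against 0.967% in control replicate 3 and 0.201% and 0.149% in AKO replicates 2 and 3. Myh2 took 2.24% in control replicate 2 and 0.784% in AKO replicate 1, against 0.186%, 0.0115% and 0.0275% in the same 3 samples. In control replicate 1 these genes had 24 reads in all, of which 8 were on Myh4 (33.3%, interval 15.6% to 55.3%), so that a fiber type could not be read there. The 3 genes have near-identical stretches of sequence, and how reads that match several of them were counted could move reads between them. Myh3 and Myh8, the embryonic and perinatal heavy chains of developing or regenerating fibers, had at most 3 reads in any sample.

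Slow thick-filament genes were near the floor. Myh7, the heavy chain of slow type I fibers and of the heart, had 0, 5 and 1 reads in the controls and 1, 1 and 0 in AKO. Myl2, the slow and cardiac regulatory light chain, had 0, 4 and 0 reads in the controls and 0, 0 and 2 in AKO. Myl3, the slow and cardiac essential light chain, had 2, 10 and 1 reads in the controls and 10, 15 and 4 in AKO. A count of 0 allows up to 3 reads. Mybpc1, slow myosin-binding protein C, was the slow thick-filament gene with most reads. It had 5.02, 188 and 20.3 normalized counts in the controls and 66.3, 92.7 and 117 in AKO, with the highest value in control replicate 2. Mybpc1 is also transcribed in fast fibers, and of the reads on Mybpc1 and Mybpc2 together it took 19.2% in control replicate 2 and 3.16% in AKO replicate 3.

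The thin-filament genes divided the same way. Tnnt3, fast troponin T, the subunit that ties troponin to tropomyosin, had 13.0, 2809 and 1699.7 normalized counts in the controls and 2273, 8295 and 11398 in AKO. Tnni2, the inhibitory subunit of fast fibers, had 2.01, 782 and 476 in the controls and 577, 2248 and 3585 in AKO. Tnnc2, the calcium-binding subunit of fast fibers, had 12.0, 1061 and 753 in the controls and 858, 2898 and 4993 in AKO. All 3 kept the order of samples seen for Myh4 and Acta1. Of the exon bases of Tnnc2, 74% also lie in the annotated gene Ube2c, which had 45.9 to 83.4 normalized counts of its own, so that the level of Tnnc2 per length and its share among troponin C reads are uncertain. Tnnt1, slow troponin T, had 5.02, 9.68 and 9.15 in the controls and 4.80, 3.91 and 6.75 in AKO. Tnnc1, troponin C of slow fibers and the heart, had 9.03, 18.3 and 15.2 in the controls and 11.5, 10.7 and 13.5 in AKO. With log2 ranges of 1.12 and 0.94, Tnnt1 and Tnnc1 varied least of the 38 members, and they did not follow the fast troponins up in AKO replicates 2 and 3.

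**Figure D2:**
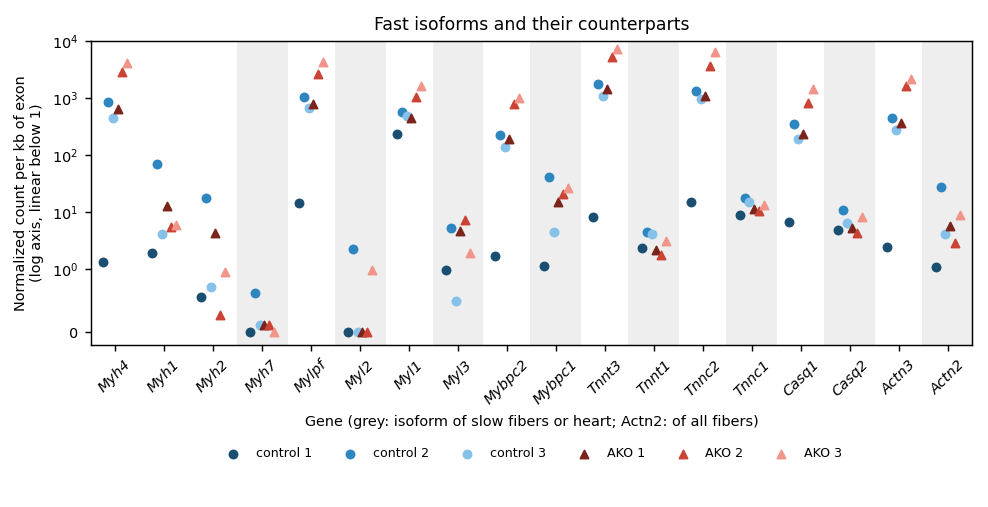
Normalized count per kb of exon (log axis, linear below 1) of the fast isoforms of 8 proteins and their counterparts in each of the 6 samples. Circles stand for control and triangles for AKO. Grey bands mark the isoforms of slow fibers or of the heart, and Actn2. The axis label assigns Actn2 to all fibers, which was not tested here. Of the fast isoforms, all but Myh1 and Myh2 are lowest in control 1 and highest in AKO 3, those in grey bands reach at most 41.6 per kb (Mybpc1 in control 2), and Myh1, Myh2 and Actn2 are highest in control 2.

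Over 8 pairs of a fast isoform and its counterpart (myosin heavy chain, both myosin light chains, myosin-binding protein C, troponin T, troponin C, calsequestrin and alpha-actinin, where the counterpart, Actn2, is not confined to slow fibers), the median log2 ratio of fast to slow normalized counts was 0.95, 6.20 and 6.49 in the controls and 6.26, 8.30 and 8.92 in AKO. The control mean was 4.55 ± 3.12 (SD, n = 3) and the AKO mean 7.82 ± 1.39 (SD, n = 3), a difference of 3.28 on the log2 scale, or 1.48 without control replicate 1. AKO replicate 1 lay between control replicates 2 and 3. The ratio was highest in AKO replicates 2 and 3, the samples with most muscle RNA. Several counterparts had few reads in every sample, with at most 5 for Myh7 and 4 for Myl2. Tnnt1 had 4 to 9 reads and Tnnc1 9 to 17. In these pairs the ratio therefore largely follows the fast counts, and a difference in fiber type between the groups cannot be read from it. Without the alpha-actinin pair, an alternative chosen after seeing the data, the difference over 7 pairs was 2.85, and AKO replicate 1 lay below control replicates 2 and 3. Mybpc1 took between 3.16% and 19.2% of its pair in the 5 samples other than control replicate 1. That was the largest share of a counterpart in each of them except control replicate 3. There Casq2 took 4.52% of its pair and Mybpc1 3.97%. Tnnc1 took between 0.270% and 1.98% of the troponin C reads in the other 5 samples and 42.9% of 21 reads in control replicate 1 (9 reads, exact 95% interval 21.8% to 66.0%).

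Titin (Ttn) and nebulin (Neb), the giant proteins that run along the filaments, varied with Acta1. Ttn had 22.1, 1287 and 559 normalized counts in the controls and 904, 4432 and 4673 in AKO. Neb had 42.1, 479 and 355 in the controls and 534, 2743 and 2692 in AKO, so that the groups did not overlap. Of the Z-disc members, Actn3, the alpha-actinin of fast glycolytic fibers, had 7.02, 1268 and 779.7 in the controls and 1043, 4711 and 6267 in AKO. Actn2, the other sarcomeric alpha-actinin, which the heart also transcribes, had 4.01, 105 and 15.2 in the controls and 21.1, 10.7 and 33.7 in AKO. Its highest value was in control replicate 2, as for Myh1 and Myh2. Actn2 took 7.67% of the reads on both actinins in control replicate 2 and between 0.227% and 1.99% in the other 4 samples outside control replicate 1. Tcap, Ldb3, Myoz1, Myot and Xirp1, which bind titin, actinin or filamin at the Z-disc, had means of 23.0 to 292 in the controls and 52.3 to 958 in AKO. Myoz1 and Myot had 0 reads in control replicate 1.

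Calcium-handling genes of fast fibers followed the filament genes closely. Atp2a1 encodes SERCA1, the calcium pump of fast fibers, and had 25.1, 5438 and 2457 normalized counts in the controls and 4021, 15343 and 23071 in AKO. Pvalb, the cytosolic calcium buffer parvalbumin of fast fibers, had 2.01, 1321 and 905 in the controls and 1004, 3739 and 5899 in AKO, the second largest log2 range of all genes tested (10.94). Casq1, the calcium store protein calsequestrin of fast fibers, had 13.0, 665 and 365 in the controls and 457, 1587 and 2729 in AKO. Casq2, the cardiac and slow-fiber calsequestrin, had 13.0, 29.0 and 17.3 in the controls and 14.4, 11.7 and 22.2 in AKO and did not share their pattern. The release channel Ryr1, its voltage sensor Cacna1s and triadin (Trdn), which anchors calsequestrin to the channel, had control means of 292, 109.6 and 86.3 normalized counts and AKO means of 1484, 466 and 479. Trdn, with 2.01, 163 and 93.5 in the controls and 166, 623 and 647 in AKO, was the other member without overlap of the groups. Jph1, which joins the plasma membrane to the reticulum, had 96.3, 126 and 129 in the controls and 121, 244 and 299.8 in AKO and kept a high value in control replicate 1.

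SERCA2 (Atp2a2), the pump isoform of slow fibers, heart and most other cells, is not a member and was abundant in the depot at 719, 682 and 643 normalized counts per kb of exon in the controls and 622, 601 and 604 in AKO. Atp2a1 had 7.22, 1564 and 707 per kb in the controls and 1156, 4413 and 6635 in AKO. SERCA1 transcripts were thus below SERCA2 transcripts in control replicate 1 alone, and the level of Atp2a2 varied 1.20-fold over the 6 samples against 919.6-fold for Atp2a1. Of the exon bases of Atp2a1, 21.9% also lie in another annotated gene.

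Of the fuel and oxygen genes, Ckm, the muscle creatine kinase that buffers ATP, had 4.01, 1363 and 961 normalized counts in the controls and 1219.6, 4640.4 and 6875 in AKO, the third largest log2 range of all genes tested (10.42). Pygm, the muscle glycogen phosphorylase, had 99.3, 1760.4 and 1087 in the controls and 1400.1, 5714 and 7642 in AKO. Eno3, the muscle enolase, had 131, 725 and 414 in the controls and 557, 1782 and 2617 in AKO. These glycolytic and energy-buffering genes had the sample order of Acta1. Mb, the oxygen store myoglobin of oxidative fibers, had 12.0, 120.4 and 17.3 in the controls and 25.9, 22.5 and 19.3 in AKO. Its highest value was in control replicate 2, together with those of Myh1, Myh2, Actn2 and Mybpc1. Of the exon bases of Mb, 31.9% lie in other annotated genes, so that part of its reads is uncertain. Smyd1, a methyltransferase of striated muscle needed for sarcomere assembly, had 42.1, 113 and 90.5 in the controls and 97.0, 349 and 427 in AKO.

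The members moved largely in 1 order of samples. Of the 38 members, 34 were lowest in control replicate 1 (ties with a value of 0 included), against 20.5% of all genes tested. The same order of all 6 samples as for Acta1 was found for 21 members with Acta1 counted, against 0.801% of all genes tested. AKO replicates 2 and 3 were above all other samples for 27 members (7.30% of all genes tested), and control replicate 2 was above AKO replicate 1 for 36 (49.2% of all genes tested). Only Neb and Trdn had AKO values that all exceeded the control values, against 6.14% of all genes tested. The highest value was in control replicate 2 for 10 members (26.3%, against 22.2% of all genes tested), which were the heavy chains Myh1, Myh2 and Myh7, Myl2, Mybpc1, Tnnt1, Tnnc1, Actn2, Casq2 and Mb. Of these, Myh7, Myl2 and Tnnt1 rested on at most 9 reads in a sample, and Myl3, another slow isoform, was highest in AKO replicate 2. The median log2 range over the 6 samples was 7.40 for the 34 members tested and 0.40 for all 13855 genes tested, and 8 of the 10 genes with the largest ranges were members.

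Divided by Acta1, most fast-fiber genes were steady among the 5 samples other than control replicate 1, which had only 62 Acta1 reads. Per 1000 Acta1 counts, Casq1 had between 100.9 and 104.4 in these 5 samples, a ratio of highest to lowest of 1.03. The ratio of highest to lowest was 1.22 for Mylpf, 1.23 for Tnni2 and Cacna1s, 1.29 for Tnnt3, 1.44 for Myh4 and 1.43 for Atp2a1. Of the 25 members besides Acta1 with at least 50 reads in each of these 5 samples, 22 varied by no more than 2-fold relative to Acta1. The other members of that set were Myl1 (2.32-fold), Neb (2.45-fold) and Jph1 (3.33-fold). Myl1 and Jph1 were lowest relative to Acta1 in AKO replicate 3, the sample with the most Acta1, and Neb was lowest in control replicate 2. The genes with fewer reads varied more. Relative to Acta1, Myh1 varied 50.2-fold, Mb 25.8-fold, Actn2 22.9-fold, Tnnc1 8.73-fold, Mybpc1 6.67-fold and Casq2 6.44-fold. Myh1, Mb, Actn2 and Mybpc1 had their highest ratio in control replicate 2. Myh2, with as few as 2 reads in a sample, varied 151-fold.

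**Figure D3:**
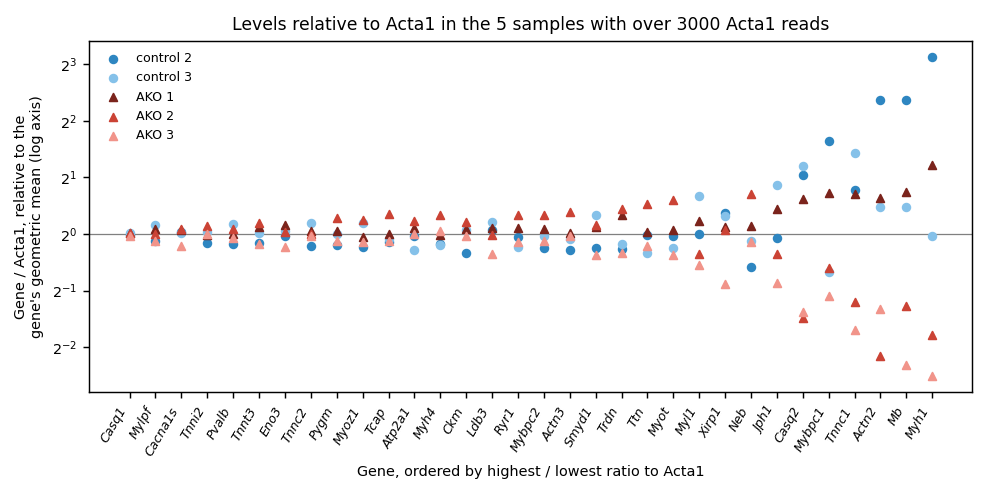
Ratio of each gene to Acta1, divided by the geometric mean of that ratio (log axis), in the 5 samples other than control 1, for the 32 members with at least 5 reads in each of them. Casq1 to Actn3 on the left lie close to 1, and Mybpc1, Actn2, Mb and Myh1 on the right are highest in control 2 and low in AKO 2 and AKO 3.

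The groups of members were compared next, as a description. Of the 34 members that passed the filter of a mean of 10 normalized counts, 29 had a higher mean log2 value in AKO and 5 a lower one (Mb, -0.39 on the log2 scale, Myh1, -0.20, Myh2, -0.80, Tnnc1, -0.19, and Casq2, -0.25). Myh1, Mb, Tnnc1, Casq2 and Actn2 changed sign between settings, and Myh2 did not pass the filter without control replicate 2, which held its highest value, so that no direction is given for these 6 genes. The median log2 difference was 3.04, against 0.01 over all genes tested. It was 1.36 without control replicate 1 and 4.13 without control replicate 2. Myh4 differed by 4.55 ± 2.15 (SE, n = 3 per group), Acta1 by 3.43 ± 1.59 and Neb by 3.02 ± 0.96. Without control replicate 1 these differences were 1.66, 1.35 and 1.94. The median SE of the members was 1.34, against 0.11 over all genes tested. The linear means of Acta1 were 3365 ± 3239 in control and 15566 ± 11334 in AKO (SD, n = 3), so that the groups overlapped by their spread. Differences are on the log2(normalized count + 1) scale, which understates the change of low genes, and Tnnt1, Myl3, Myh7 and Myl2, with means of 1.04 to 6.98, did not pass the filter.

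At an adjusted p under 0.05, limma called 0 of the 34 members (11 at an unadjusted p under 0.05), beside 0.0144% of all genes tested (9.1% at an unadjusted p under 0.05). The edgeR quasi-likelihood test on the recovered reads called 0 of 33 members (17 unadjusted), beside 0.0216% of all genes (9.24% unadjusted). DESeq2 called 0 of the 36 members to which it gave a p (9 unadjusted), beside 0.902% of all genes (6.25% unadjusted). Since the members were chosen with these differences known, nothing is read from these counts.

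**Figure D4:**
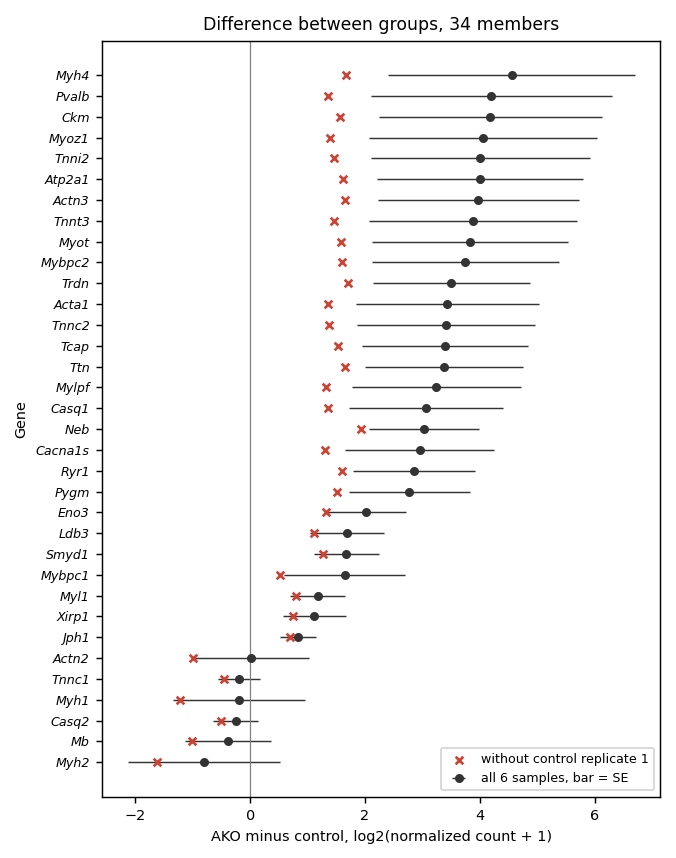
Difference between AKO and control in mean log2(normalized count + 1) for the 34 members that passed the filter, with dots and SE bars for all 6 samples (n = 3 per group) and red crosses for the fit without control replicate 1. Without that sample 28 members lie between 0.51 and 1.94, and Actn2 joins the 5 members below 0.

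Other striated muscle genes, which are no members, were listed by role from textbook knowledge with earlier results of these data known. Of 71 such genes, 65 were listed and 53 tested, and limma called 0 of them (34 at an unadjusted p under 0.05) and edgeR 0 (35 unadjusted). DESeq2 gave a p to 65 and called 7 (26 unadjusted). Over all genes limma called 0.0144% (9.1% unadjusted), edgeR 0.0216% (9.24%) and DESeq2 0.902% (6.25%). Since these lists too were chosen with earlier results known, nothing is read from these counts. Of the 53, 45 had a higher mean in AKO and 8 a lower one, and the median log2 difference was 1.69, or 0.93 without control replicate 1. By role the median was 2.54 for 20 Z-disc and M-band genes, 1.58 for 10 genes of the triad and reticulum, 0.64 for 12 fuel genes, 2.11 for 7 genes of the fiber membrane and neuromuscular junction, and 1.49 for 4 myogenic factors. Of the abundant genes of these lists, Fhl1, Gys1, Slc25a4, Asph and Atp2a2 had log2 ranges over the samples of 0.26 to 0.45 and Cox8b one of 1.04, and all 6 are also transcribed outside muscle. Xirp2, Myom2 and Mylk2, a Z-disc-associated repeat protein, an M-band protein of fast fibers and the skeletal myosin light chain kinase, were at 0 in control replicate 1, and were the non-members of these lists among the largest ranges of all genes. Xirp2 had 0, 269.9 and 159 normalized counts in the controls and 204, 1058 and 1088 in AKO. Eef1a2, the elongation factor of muscle and neurons, and Mylk4, a kinase gene, also took this order, with 2.01 and 3.01 in control replicate 1 and 1188 and 1549 in AKO replicate 3.

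The 7 genes that DESeq2 called went in both directions. Mstn, the muscle growth inhibitor myostatin, had 0, 6.45 and 6.10 normalized counts in the controls and 14.4, 63.5 and 65.6 in AKO, with a DESeq2 log2 difference of 3.52. Its AKO values were all above its control values. Klhl40, a thin-filament stabilizer, had 0, 7.53 and 2.03 in the controls and 10.6, 37.1 and 45.3 in AKO. Fhl3, Phka1 and Synpo2l were also called higher, by 0.96, 0.73 and 1.69 on the log2 scale. Cox7a1, a subunit of cytochrome oxidase in muscle and brown fat, was called lower, with 453, 751 and 518 in the controls and 212, 285 and 310.4 in AKO. Cox8b, another such subunit, was called lower by DESeq2 as well, with a log2 difference of -0.64. Both Cox genes are also on the list of brown and beige fat markers. None of the 7 was called by limma or edgeR.

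Markers of regenerating muscle were scarce, and the cardiac genes were low. Of the satellite cell markers, Pax7, Myf5 and Calcr were not listed, and Cdh15 and Chodl together had at most 17.6 normalized counts in a sample. The cardiac genes Myh6, Tnnt2 and Nppa reached at most 2.89, 5.86 and 2.88. Tnni3, cardiac troponin I, lay between 8.64 and 15.1, Myl4, an atrial light chain, between 58.6 and 78.3, and Ryr2, the cardiac release channel, between 2.93 and 12.0. Actc1, cardiac actin, which skeletal fibers also transcribe at a low level, had 3.01, 77.4 and 14.2 in the controls and 17.3, 18.5 and 106 in AKO.

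Of 59 tested markers of other cells, Elovl3 alone was called by limma. It is a brown and beige fat gene and was lower in AKO by 1.64 on the log2 scale. The limma call held without control replicate 2 and was lost when any other sample was left out. DESeq2 called 7 markers, namely Ucp1, Cidea, Dio2, Elovl3, Cox7a1, Cox8b and Otop1. All 7 are on the list of brown and beige fat markers and were lower in AKO. Their DESeq2 log2 differences included -1.74 for Ucp1, -1.32 for Dio2 and -0.84 for Cidea. The summed level of 11 smooth muscle and mural cell markers lay between 12718 and 14521 normalized counts in the controls and between 12975 and 14352 in AKO, with a median log2 range of 0.43 per gene, so that the skeletal muscle genes varied without the smooth muscle genes. The sums of 9 adipocyte markers lay between 626407 and 772840.0, with the lowest in AKO replicate 2. Endothelial markers (5 genes) summed to between 15373 and 17901, and 5 Schwann cell markers to between 7997 and 10270.5. Macrophage markers (5 genes) summed to between 5726 and 7870.1 in the controls and between 7099 and 9494 in AKO. Tendon and fascia markers, 5 of 6 listed, summed to 215, 130.1 and 166 in the controls and 184, 287 and 240.1 in AKO. The 8 brown and beige fat markers summed to between 28830.3 and 41625 in the controls and between 12269.9 and 15661 in AKO. Their part in the muscle result was not tested.

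The markers of 2 other cell types also differed widely between samples. The 6 epithelial markers, such as Epcam, Krt8 and Krt18, summed to 474, 24.7 and 951 normalized counts in the controls and 148, 1433 and 477 in AKO. Epcam and Krt8 had 0 reads in control replicate 2, in which the members were the third highest by summed level. The 4 lymphocyte markers, such as the B-cell gene Cd79a and the T-cell gene Cd3e, summed to 457, 76.4 and 59.0 in the controls and 83.5, 656 and 63.6 in AKO, and were high in control replicate 1 and AKO replicate 2. These orders differed from each other and from that of the members, whose sums were 1313, 36979 and 20715 in the controls and 27502, 105024 and 154201 in AKO. Muscle, epithelial and lymphocyte genes therefore varied in separate orders among the same 6 samples. What the samples held besides fat when they were dissected was not recorded in the sources used here, and its part in the values was not tested.

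**Figure D5:**
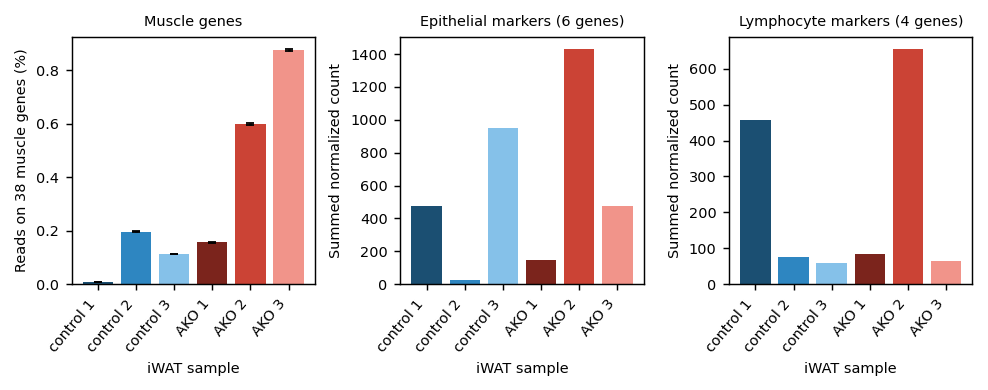
Percent of reads on the 38 listed members (left, with 95% Wilson intervals) and summed normalized counts of the epithelial (middle) and lymphocyte markers (right) in each of the 6 samples. The muscle share is highest in AKO 3 (0.877%), the epithelial sum in AKO 2 (1433) and the lymphocyte sum in AKO 2 (656), with control 1 lowest for muscle and control 2 lowest for epithelium.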

How the data were processed

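Total RNA of iWAT was sequenced in 3 control and 3 AKO samples. Per the labels and methods, the authors aligned reads with STAR to mm10 and counted them per gene, and they deposited normalized counts of DESeq2, a signal scaled by size factors and not raw counts. The deposited table also holds the log2 fold change and the p-value columns of the authors' own comparison, which were not used. All values (100%, within 0.01 of a whole number) were whole multiples of 1 step per sample, so reads were recovered as value divided by step. The main test was limma (3.58.1) with a variance trend on log2(value + 1) over 13855 genes with a mean of at least 10, with Benjamini-Hochberg adjustment. On the recovered reads, edgeR (4.0.16) called 3 genes of 13869 and DESeq2 (1.42.0) 149 of 16527. Scripts used Python 3.11.15 and R 4.3.3 and were tested on simulated data. No pair of samples in 1 group was 1 library deposited again (chi-square over degrees of freedom between 9.86 and 20.1). The p-values measure only the spread between these pools. With 3 against 3 samples an exact permutation test could not go below 0.1.

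The members, the gene lists and the pairs were chosen with earlier results of these data known. All members could be named. Values in every sample are given for the fast and slow pairs, the 10 members highest per kb, and the 3 with the smallest and the 3 with the largest range. Of other genes, those called, the most abundant of a list and those with the largest ranges could be named, and the text names others by example. Positions and exon lengths came from GENCODE M21 (GRCm38), in which 15894 symbols (96.1%) were matched. A marker of the lymphocyte list is not reported here and was left out of its sums. Whether counting used strand is not given in the sources used here, so that reads of overlapping genes are uncertain. Alternatives were other pseudocounts, filters, scaling (TMM), robust shrinkage, edgeR, DESeq2, a replicate block and leaving out each sample.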

Additional observations from a re-analysis of the deposited data

How the results depend on the processing

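The median log2 difference of the members stayed above 0 under every alternative tried (2.18 with DESeq2 to 3.07 with a pseudocount of 0.1), and leaving out single samples gave 1.36 to 4.13. That of the other muscle genes was 0.64 with at least 10 in every sample and 0.93 to 2.28 with a sample left out. The difference in the fast to slow ratio was 1.48 to 4.25 with a sample left out. In each case the lowest leave-out value was without control replicate 1. In 28 of the 34 members the difference was above 0 in every setting. Actn2 was below 0 in 7 of 15 settings, Myh1 lay between -1.69 and 1.32, and Mb between -1.14 and 0.60, so that their directions depend on the setting and cannot be given. Of all single-gene values under an alternative, 12 of 493 in members and 32 of 600 in other named genes had the sign opposite to the main fit. The cause was not tested.

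The numbers of calls moved more. With a replicate block, limma called 1 member, Neb, 1 other muscle gene, Cmya5, and 0 markers of other cells. Samples with the same replicate number had deviations with correlations of 0.14, -0.35 and 0.24, so that they share only a number and pairing them has no basis in the labels. DESeq2 called 7 other muscle genes and 7 markers, and a filter of at least 10 in every sample gave 2 markers. Leaving out a sample gave 0 to 1 marker, and 0 members and 0 other muscle genes each time. With TMM factors the median over all genes was 0.02. Equal depth left samples with few muscle reads, such as control replicate 1 with 1308, as the limit of every ratio that uses them.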
